A study of Mus musculus with 8 samples.

Results

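A set of 10 secreted ligands known to act on cells of the oligodendrocyte lineage was described across all 8 libraries of the corpus callosum: Igf1, Igf2, Bdnf, Fgf1, Fgf2, Pdgfa, Nrg1, Tgfb1, Gas6 and Bmp4. The set does not hold every such ligand, and LIF and CNTF were left out of it. The ligands were chosen by symbol for this known function. Earlier results of these data were known when the ligands, and the pathway lists and markers below, were chosen. The ligands make up 10 of the 25239 genes in the table. All 10 were among the 18123 genes tested, those whose level averaged 0.1 CPM (normalised read counts scaled to library size) or more.

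The corpus callosum, the large white matter tract between the hemispheres, was taken from C57BL/6 mice (C57BL/6J in the study's methods) after bilateral common carotid artery stenosis (BCAS), in which microcoils around both carotid arteries lower blood flow to the brain, or after sham operation. The study asked how the loss of TRPA1, a cation channel sensitive to oxidants, alters the white matter under chronic hypoperfusion. The libraries are BCAS wild type (WT) and BCAS TRPA1-KO at days 7, 10 and 14 after operation, 1 library per label and day, and sham WT and sham TRPA1-KO at day 14, 1 library each. The mice were young adults, and the study's methods name male sex for the WT mice only. The TRPA1-KO line is a constitutive knockout backcrossed to C57BL/6J, so the deletion is not limited to any cell type. Days 7, 10 and 14 were treated as replicates of a label and both sham libraries as 1 group, so the spread within a group holds days as well as animals, and p-values measure only the spread between these libraries.

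Myelin in the adult corpus callosum is made by oligodendrocytes, which arise from precursors that keep dividing throughout life. PDGF-A drives division of the precursors, FGF2 keeps them dividing and holds back their maturation, IGF1 promotes survival and myelin synthesis, BDNF and neuregulin 1 act through the receptors TrkB and ErbB, and GAS6 acts through the TAM receptors Tyro3, Axl and Mertk. BMP4 works the other way, turning precursors away from the oligodendrocyte fate and toward an astrocytic one through Smad proteins and the Id genes, while TGF-beta1 acts on microglia, astrocytes and precursors alike.

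Library depth lay between 7896071 and 12952093 reads assigned to genes. Trpa1 went against the genotype labels: it had 0 reads in each BCAS WT library and 1 in the sham library labelled WT, but 11, 3 and 7 reads in the BCAS TRPA1-KO libraries and 10 in the sham library labelled TRPA1-KO. By the 95% counting interval a count of 0 allows up to 0.328 to 0.465 CPM in the BCAS WT libraries. The reads were counted over the whole gene, not over the deleted exons, so exchanged labels and reads from outside the deleted exons cannot be told apart, and each direction below is one between libraries labelled WT and libraries labelled TRPA1-KO. Myelin genes dominated as the tissue label says. The 8 oligodendrocyte markers summed to 15168 and 16660 CPM in sham, 12701 to 13553 CPM in BCAS WT and 12456 to 14116 CPM in BCAS TRPA1-KO. In this sum both sham libraries lay above every BCAS library. But 7 neuronal markers reached 5242 to 6902 CPM in sum, and 6 markers of striatal neurons summed to 1014 and 1376 CPM in the sham libraries against 525 to 752 CPM in BCAS WT and 607 to 962 CPM in BCAS TRPA1-KO. The library labelled BCAS WT day 7 stood apart: all 8 microglial markers, 5 of 7 astrocyte markers and 6 of 8 meningeal fibroblast markers were at their highest there. Values without this library are given beside the calls it alters. In bulk tissue, fewer cells of a type and less RNA per cell cannot be told apart.

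Per kilobase of exon, Gas6 was the most abundant of the ligands at 40.5 ± 4.39 CPM per kb (SD, n = 8 libraries), followed by Fgf1 at 11.6 ± 1.05 and Pdgfa at 10.1 ± 1.18 CPM per kb. Bdnf and Igf2 came next at 2.81 ± 0.879 and 2.75 ± 0.463 CPM per kb. Below them lay Nrg1 at 1.41 ± 0.149, Bmp4 at 1.38 ± 0.715, Tgfb1 at 1.26 ± 0.755 and Igf1 at 0.880 ± 0.261 CPM per kb, with Fgf2 last at 0.128 ± 0.0330 CPM per kb. Over the 8 libraries the ranges of Gas6 and Fgf1, of Pdgfa and Bdnf, of Igf2 and Nrg1, and of Igf1 and Fgf2 did not overlap, whereas all other neighbours in this order overlapped. Fgf2 rests on only 5 to 15 reads per library.

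**Figure D1:**
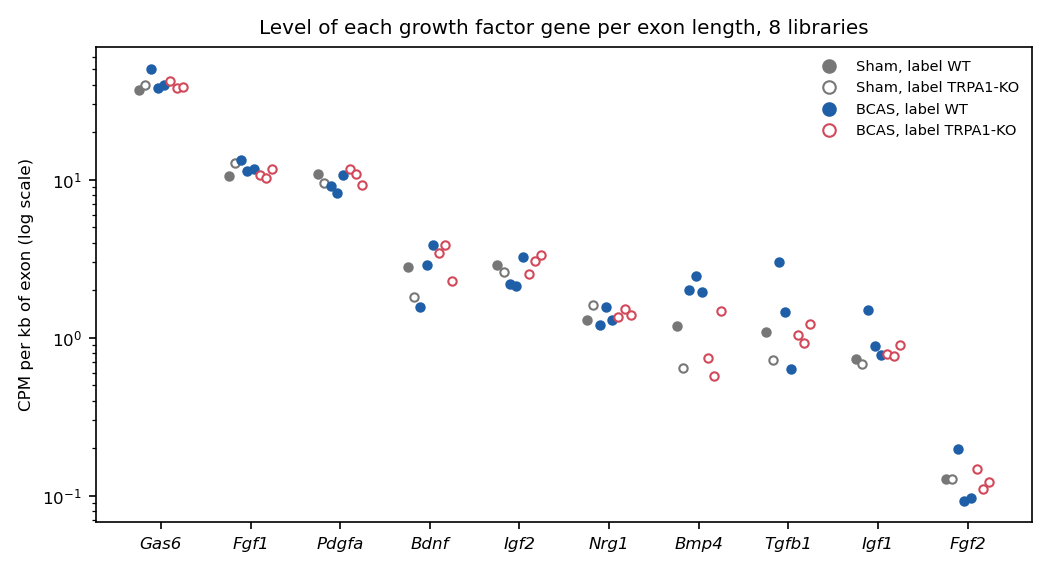
Level of each ligand per kilobase of exon in CPM per kb on a log axis, 1 point per library, grey for sham, blue for BCAS WT and red for BCAS TRPA1-KO, filled for label WT and open for label TRPA1-KO. Gas6 lies above all others at 37.1 to 50.6 CPM per kb and Fgf2 below all others at 0.0929 to 0.197 CPM per kb.

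Across the 4 comparisons, Bmp4 was the single ligand with an unadjusted limma p under 0.05 and no ligand passed adjustment. Between BCAS WT and BCAS TRPA1-KO, 1 of 10 ligands had a p under 0.05 by limma, where 4.2% of all genes tested did, and 0 of 10 passed the adjusted threshold, where 0.0166% of all genes did. Between BCAS WT and sham the counts were 1 of 10 against 5.45% and 0 of 10 against 0% of all genes. Between BCAS TRPA1-KO and sham they were 0 of 10 against 2.74% and 0 of 10 against 0.00552%, and between all 4 libraries labelled WT and all 4 labelled TRPA1-KO they were 1 of 10 against 3.94% and 0 of 10 against 0.0497%. A count of 1 is the smallest above 0 that 10 ligands can give, so these shares do not set the ligands apart from the background. The edgeR quasi-likelihood test and DESeq2 on the recovered reads also called 0 ligands after adjustment, and gave 1, 2, 0 and 1 ligands each with an unadjusted p under 0.05 in the same order of comparisons, the additional one for BCAS WT against sham being Igf1 by edgeR and Tgfb1 by DESeq2. DESeq2 gave no adjusted p for Bmp4 in that comparison.

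The median log2 difference of the 10 ligands was 0.044 between BCAS WT and BCAS TRPA1-KO, 0.096 between BCAS WT and sham and 0.048 between BCAS TRPA1-KO and sham, beside medians over all genes tested of 0.0010, -0.0012 and -0.0021. Without the BCAS WT library of day 7 the first became -0.014 and the second -0.00029. The BCAS groups share both sham libraries, so the comparisons with sham are not independent.

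**Figure D2:**
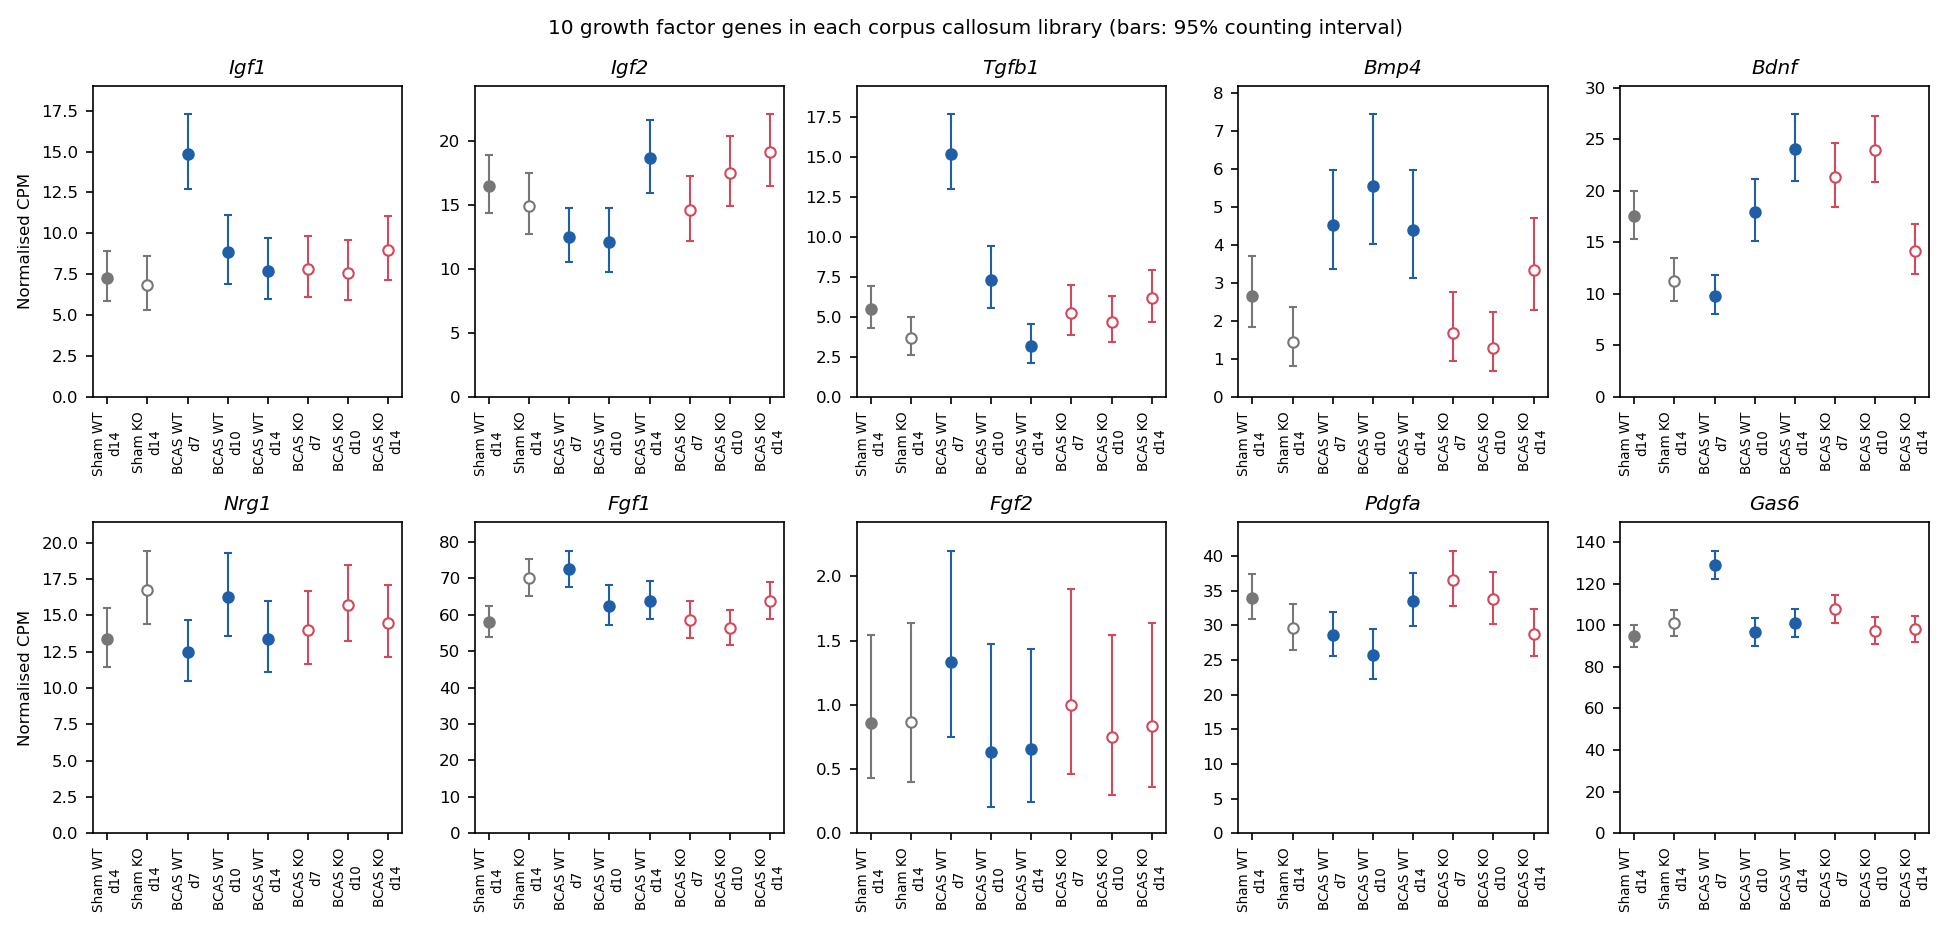
Normalised CPM of the 10 ligands in each of the 8 libraries, with sham in grey, BCAS WT in blue and BCAS TRPA1-KO in red (filled for label WT, open for label TRPA1-KO) and bars for the 95% Clopper-Pearson interval, which covers counting error only. Bmp4 sits at 4.39 to 5.55 CPM in BCAS WT and at 1.28 to 3.33 CPM in BCAS TRPA1-KO, while Igf1 and Tgfb1 peak in the BCAS WT library of day 7.

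Bmp4 was higher in the BCAS libraries labelled WT than in any other library. It stood at 4.54, 5.55 and 4.39 CPM in BCAS WT at days 7, 10 and 14, at 1.67, 1.28 and 3.33 CPM in BCAS TRPA1-KO on the same days, and at 2.66 and 1.44 CPM in the sham libraries labelled WT and TRPA1-KO. The highest BCAS TRPA1-KO library, that of day 14, lay below the lowest BCAS WT library, and it was the only one of its group above both sham libraries. The values rest on 40 to 51 reads per library in BCAS WT, 12 to 32 in BCAS TRPA1-KO, and 34 and 15 in sham, and the 95% counting intervals of the 2 day 14 BCAS libraries, 3.14 to 5.98 and 2.28 to 4.70 CPM, overlapped.

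The mean of Bmp4 was 4.82 ± 0.629 CPM in BCAS WT and 2.09 ± 1.09 CPM in BCAS TRPA1-KO (SD, n = 3 each), a difference of 0.96 ± 0.26 on the log2(CPM + 1) scale (SE; limma adjusted p = 0.98, unadjusted p = 0.0038, exact permutation p = 0.10, two-sided). An exact test of 3 libraries against 3 cannot go below p = 0.1. Bmp4 was the 1 of 10 ligands whose BCAS groups did not overlap, against 9.21% of all genes tested. The unadjusted p stayed under 0.05 in 15 of 15 alternative fits, with adjusted p from 0.24 to 1, and without the BCAS WT library of day 7 the difference was 1.0 ± 0.29.

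Against sham, BCAS WT was higher in Bmp4 by 0.96 ± 0.29 on the log2 scale (limma adjusted p = 0.82, unadjusted p = 0.0069, exact permutation p = 0.10), whereas BCAS TRPA1-KO differed from sham by -0.0053 ± 0.29 (limma adjusted p = 1.0). The pooled sham group mixes both labels. Against the single sham library of the same label, the difference was 0.66 in BCAS WT and 0.29 in BCAS TRPA1-KO. The difference between these 2 effects was 0.38 on the log2 scale, so most of the contrast between the labels above depends on pooling the sham libraries. With day as a block over all 8 libraries, a fit chosen after the data were seen, the differences from sham were 1.17 ± 0.35 in BCAS WT (limma adjusted p = 1.0, under the threshold before adjustment) and 0.21 ± 0.35 in BCAS TRPA1-KO. Pooling operations, the 4 libraries labelled WT averaged 4.28 ± 1.20 CPM and the 4 labelled TRPA1-KO 1.93 ± 0.947 CPM, a log2 difference of 0.87 ± 0.24 (limma adjusted p = 0.99, unadjusted p = 0.0031, exact permutation p = 0.057). The label WT was higher in 4 of 4 pairs matched for operation and day, by 0.59 in sham, 1.05 at day 7, 1.52 at day 10 and 0.32 at day 14, but the 2 sets of 4 overlapped, as for every ligand (0 of 10 did not overlap, against 2.46% of all genes). The share of all genes tested with the same label higher in 4 of 4 pairs was not counted, here or for the genes below.

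Bmp4 lies on chromosome 14 at 46383520 to 46390669 of GRCm38, minus strand, and shares bases with Gm15217 and Gm15222 on the other strand. The strand setting of the counting is not given in the sources used here, so reads from the shared bases cannot be assigned to one gene. The 250 bases before its start are shown with those of Tgfb1 because these 2 low ligands had the largest log2 differences between the BCAS groups. They are from RefSeq (GRCm38.p6), 5′ to 3′ on the gene's strand, at chr14:46390670-46390919 for Bmp4 and chr7:25686752-25687001 for Tgfb1 on the plus strand, with capitals for the E-box letters CACGTG searched on both strands.
Bmp4: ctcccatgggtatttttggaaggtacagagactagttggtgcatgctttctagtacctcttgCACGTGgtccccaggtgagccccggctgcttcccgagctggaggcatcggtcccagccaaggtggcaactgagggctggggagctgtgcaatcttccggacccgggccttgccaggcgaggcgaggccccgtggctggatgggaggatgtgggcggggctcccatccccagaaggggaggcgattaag
Tgfb1: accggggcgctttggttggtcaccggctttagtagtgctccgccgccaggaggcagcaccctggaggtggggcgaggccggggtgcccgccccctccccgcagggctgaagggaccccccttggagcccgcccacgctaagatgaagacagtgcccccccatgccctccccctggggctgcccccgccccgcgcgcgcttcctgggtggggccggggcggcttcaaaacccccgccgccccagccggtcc
The E-box letters begin 188 bases before the Bmp4 start. They are in 6.02% of 32851 RefSeq promoter windows of this length. No match to the AP-1 letters TGANTCA (in 6.75% of windows), the CRE letters TGACGTCA (1.55%) or the TATA letters TATAAA (12.4%) was in either window, nor an E-box in that of Tgfb1. RefSeq windows matched 8 of the 10 ligands.

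Beside Bmp4, which did not pass adjustment, no listed gene of the BMP pathway had an unadjusted limma p under 0.05 between the BCAS groups. Of 21 genes listed for the pathway (ligands, receptors, the antagonists Nog, Chrd and Grem1, Smads and Id genes), 0 had an unadjusted limma p under 0.05 between the BCAS groups, beside 4.2% of all genes tested. Of the 21, 12 were higher in BCAS WT, the median log2 difference was 0.098, and 0 passed adjustment. Against sham 1 of 21 had such a p in BCAS WT, beside 5.45% of all genes. It was Id4, which was lower. In BCAS TRPA1-KO 0 of 21 did, beside 2.74%. The receptors Bmpr1a and Bmpr2 differed between the BCAS groups by 0.10 ± 0.10 and -0.15 ± 0.094 on the log2 scale (limma adjusted p = 0.98 for each). Id1, an immediate target of BMP signalling, was singled out after its values were seen. It was at 10.7, 12.4 and 9.33 CPM in BCAS WT at days 7, 10 and 14. In BCAS TRPA1-KO it was at 8.46, 8.44 and 8.74 CPM on the same days. The sham libraries labelled WT and TRPA1-KO were at 11.6 and 10.4 CPM. BCAS WT thus overlapped sham in Id1, unlike in Bmp4, whereas every BCAS TRPA1-KO library lay below both sham libraries. The label WT was the higher in 4 of 4 pairs, with a log2 difference of 0.30 ± 0.16 between the BCAS groups (limma adjusted p = 0.98, exact permutation p = 0.10). The other Id genes did not share this order, the label WT being the higher in 3 of 4 pairs for Id2, 2 of 4 for Id3 and 1 of 4 for Id4.

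Markers of oligodendrocyte precursors moved with Bmp4 in part. Their 6 genes summed to 559, 608 and 508 CPM in BCAS WT at days 7, 10 and 14, to 428, 482 and 540 CPM in BCAS TRPA1-KO, and to 547 and 535 CPM in sham, so day 14 reversed the order seen at days 7 and 10. Within the list 5 of 6 were higher in BCAS WT than in BCAS TRPA1-KO, and Gpr17, a receptor of precursors committed to differentiate that was singled out after its values were seen, was at 90.8, 138 and 81.4 CPM in BCAS WT and at 68.0, 75.8 and 71.5 CPM in BCAS TRPA1-KO (log2 difference 0.48 ± 0.16, limma adjusted p = 0.98). The part of precursor abundance in the Bmp4 difference was not tested.

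Tgfb1 varied most within BCAS WT, where it was highest at day 7. Its level was 15.2, 7.31 and 3.18 CPM in BCAS WT at days 7, 10 and 14, 5.23, 4.70 and 6.14 CPM in BCAS TRPA1-KO, and 5.48 and 3.64 CPM in the sham libraries labelled WT and TRPA1-KO. BCAS WT thus held both the highest and the lowest of the 8 values, and its range enclosed those of the other groups. Reads ranged from 29 to 171 per library.

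The Tgfb1 means were 8.57 ± 6.11 CPM in BCAS WT and 5.36 ± 0.728 CPM in BCAS TRPA1-KO (SD, n = 3 each), and the log2 difference of 0.38 ± 0.40 did not pass the test (limma adjusted p = 0.98, exact permutation p = 0.70). Without the BCAS WT library of day 7 it was -0.10 ± 0.29, and without that of day 14 it was 0.87 ± 0.28 (limma adjusted p = 0.29, under the threshold before adjustment). Against sham BCAS WT differed by 0.59 ± 0.43 and BCAS TRPA1-KO by 0.21 ± 0.43 on the log2 scale (limma adjusted p = 0.93 and 1.0), the first becoming 0.10 without day 7 and 1.08 without day 14. Tgfb1, at chromosome 7, 25687002 to 25705077 on the plus strand, shares no bases with another annotated gene.

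Of 20 genes listed for the TGF-beta pathway, 4 had an unadjusted limma p under 0.05 between the BCAS groups, against 4.2% of all genes tested, 3 higher and 1 lower in BCAS WT, and 0 passed adjustment (adjusted p = 0.98 for each). Nrros, which holds latent TGF-beta1 on microglia, was at 9.69, 6.55 and 7.24 CPM in BCAS WT and at 3.67, 4.70 and 3.85 CPM in BCAS TRPA1-KO at days 7, 10 and 14. Its groups did not overlap, as for 9.21% of all genes tested (log2 difference 0.79 ± 0.20). The coreceptor Eng (0.34 ± 0.11) and the type II receptor Tgfbr2 (0.63 ± 0.24) were the other higher genes, and Smad7, the inhibitory Smad, was lower by -0.31 ± 0.10. Tgfbr2 was at 47.4, 32.8 and 20.6 CPM in BCAS WT against 18.3 to 21.7 CPM in BCAS TRPA1-KO, so at day 14 it lay within the other group's range. Without the BCAS WT library of day 7, Eng, Nrros and Smad7 still had a p under 0.05, against 3.4% of all genes, and Tgfbr2 did not (0.35 ± 0.18). Against sham 5 of 20 had one in BCAS WT, Ltbp1, Eng and Tgfbr2 higher and Smad4 and Smad7 lower, against 5.45% of all genes, of which Tgfbr2 and Smad7 remained without that library, against 5.29%. Smad7 was lower with the label WT in 4 of 4 matched pairs, at 30.4, 28.9 and 26.6 CPM in BCAS WT against 34.6, 39.5 and 33.4 CPM in BCAS TRPA1-KO.

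The 8 microglial markers moved with Tgfb1 and with Igf1. Their sum was 929, 558 and 329 CPM in BCAS WT at days 7, 10 and 14, 317, 330 and 444 CPM in BCAS TRPA1-KO, and 338 and 342 CPM in sham. In BCAS WT the order of days was the same for the marker sum, Tgfb1 and Igf1, and in BCAS TRPA1-KO day 14 was the highest for all 3. The lowest day in BCAS TRPA1-KO was day 7 for the marker sum and day 10 for both ligands. This order was not particular to microglia. Astrocyte markers summed to 5968, 5587 and 4538 CPM in BCAS WT and to 4225, 4404 and 5488 CPM in BCAS TRPA1-KO. The meningeal fibroblast, endothelial and pericyte sums also fell over the days in BCAS WT. They too were highest at day 14 in BCAS TRPA1-KO. All 8 microglial markers were detected in each library. The part of microglial or other cell abundance in these ligands' values was not tested.

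**Figure D3:**
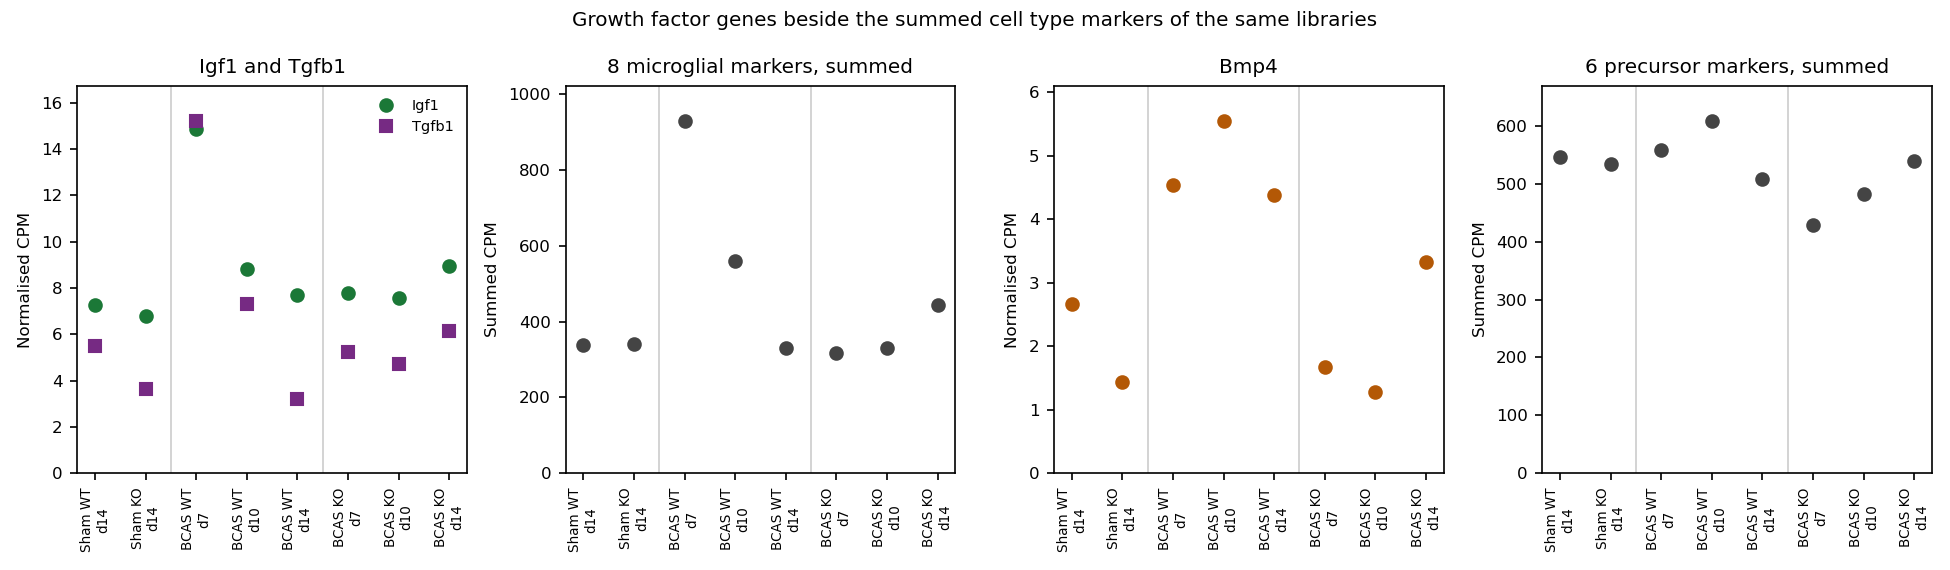
Normalised CPM of Igf1, Tgfb1 and Bmp4 and summed CPM of 8 microglial and 6 oligodendrocyte precursor markers, 1 point per library, with the sham, BCAS WT and BCAS TRPA1-KO libraries separated by lines. The microglial sum is 929 CPM in the BCAS WT library of day 7, where Igf1 (14.9 CPM) and Tgfb1 (15.2 CPM) are also at their highest, whereas Bmp4 is highest at day 10.

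Igf1 also peaked in the BCAS WT library of day 7. It was at 14.9, 8.82 and 7.68 CPM in BCAS WT at days 7, 10 and 14, at 7.79, 7.58 and 8.95 CPM in BCAS TRPA1-KO, and at 7.28 and 6.81 CPM in sham. Every BCAS library lay above both sham libraries, but only that of day 7 in BCAS WT had a 95% counting interval, 12.7 to 17.3 CPM, clear of those of sham, which reached 8.91 CPM.

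The log2 difference of Igf1 from sham was 0.46 ± 0.24 in BCAS WT (limma adjusted p = 0.91, exact permutation p = 0.20) and 0.18 ± 0.24 in BCAS TRPA1-KO (limma adjusted p = 1.0). The first was 0.20 ± 0.19 without day 7 and 0.63 ± 0.23 without day 14 (limma adjusted p = 0.31, under the threshold before adjustment). Between the BCAS groups the difference was 0.28 ± 0.23, and 0.023 ± 0.18 without day 7 (limma adjusted p = 0.98 and 1.0). Igf1 spans chromosome 10, 87858265 to 87937042 on the plus strand, and overlaps the antisense gene Igf1os.

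Igf2, which in brain comes mostly from meninges and choroid plexus, was low in the BCAS WT libraries of days 7 and 10. Its values were 12.5, 12.1 and 18.7 CPM in BCAS WT, 14.6, 17.5 and 19.1 CPM in BCAS TRPA1-KO at days 7, 10 and 14, and 16.5 and 15.0 CPM in sham. These were the 2 lowest of the 8 libraries, while both day 14 BCAS libraries were above sham. The BCAS groups overlapped and differed by -0.25 ± 0.18 on the log2 scale (limma adjusted p = 0.98, exact permutation p = 0.30), or by -0.43 ± 0.16 without the BCAS WT library of day 14 (unadjusted limma p = 0.022, adjusted p = 0.39). The 8 meningeal fibroblast markers summed to 24.7 CPM in each sham library, 25.2 to 51.1 CPM in BCAS WT and 24.8 to 32.3 CPM in BCAS TRPA1-KO, with 6 of 8 at their highest in the BCAS WT library of day 7, where Igf2 was low. Choroid plexus markers were near 0 throughout, at 3.65 to 9.69 CPM for 6 genes. Igf2 lies on chromosome 7 at 142650766 to 142666816, minus strand, and shares that strand with Gm49394, so reads may be split between them.

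Among 14 other genes of the IGF pathway, 2 had an unadjusted limma p under 0.05 between the BCAS groups, both binding proteins and both higher in BCAS WT (0 after adjustment), against 4.2% of all genes tested. Igfbp2 was at 44.6, 11.3 and 11.2 CPM in BCAS WT at days 7, 10 and 14 against 10.7, 6.30 and 7.91 CPM in BCAS TRPA1-KO (log2 difference 1.06 ± 0.44, limma adjusted p = 0.98). Igfbp7 was at 38.0, 26.1 and 17.9 CPM against 17.3, 17.5 and 17.2 CPM (0.57 ± 0.22, limma adjusted p = 0.98). Both pairs of groups were separate, as for 9.21% of all genes tested, Igfbp7 by less than 1 CPM at day 14. Without the library of day 7 neither had a p under 0.05 (0.43 ± 0.22 for Igfbp2 and 0.30 ± 0.16 for Igfbp7). Between all libraries of a label both had an unadjusted limma p under 0.05 with and without that library, beside 3.94% and 3.91% of all genes. Neither passed adjustment there. For both genes the label WT was the higher in 4 of 4 matched pairs, sham included. The receptors Igf1r and Igf2r differed by 0.026 ± 0.089 and 0.054 ± 0.094 on the log2 scale.

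Gas6, the most abundant ligand, varied little outside 1 library. It was at 129, 96.5 and 101 CPM in BCAS WT at days 7, 10 and 14, at 108, 97.3 and 98.0 CPM in BCAS TRPA1-KO, and at 94.6 and 101 CPM in sham. Only the BCAS WT library of day 7 stood clear, and the other 7 lay between 94.6 and 108 CPM. The BCAS groups differed by 0.096 ± 0.11 on the log2 scale (limma adjusted p = 0.98, exact permutation p = 0.70), and by -0.032 ± 0.078 without day 7. Gas6, at chromosome 8, 13465374 to 13494490, overlaps the end of Tmem255b on the other strand.

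Of the 4 other genes of this pathway, Pros1, the second ligand of the TAM receptors, was higher in BCAS WT at 34.1, 21.8 and 13.1 CPM than in BCAS TRPA1-KO at 13.4, 12.3 and 14.1 CPM for days 7, 10 and 14, but not at day 14 (log2 difference 0.65 ± 0.27, limma adjusted p = 0.98). It was the 1 of 4 with an unadjusted p under 0.05 between the BCAS groups, beside 4.2% of all genes tested. It no longer had one there without the BCAS WT library of day 7 (0.33 ± 0.20). Axl, Mertk and Tyro3 differed by 0.23 ± 0.13, 0.33 ± 0.22 and -0.22 ± 0.12, each with limma adjusted p = 0.98.

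Bdnf ran opposite to Igf1 and Tgfb1 in the BCAS WT libraries. It was at 9.78, 17.9 and 24.0 CPM in BCAS WT at days 7, 10 and 14, at 21.4, 23.9 and 14.1 CPM in BCAS TRPA1-KO, and at 17.5 and 11.2 CPM in sham. The lowest and the highest of all 8 values were both in BCAS WT, and the 2 sham libraries differed beyond counting error, the lower bound of one at 15.3 CPM and the upper bound of the other at 13.4 CPM. The log2 difference was -0.24 ± 0.29 between the BCAS groups (limma adjusted p = 0.98, exact permutation p = 0.70), and 0.19 ± 0.32 and 0.44 ± 0.32 for BCAS WT and BCAS TRPA1-KO against sham. Without the BCAS WT library of day 7 the first was 0.095 ± 0.21.

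Bdnf is made chiefly by neurons, and 7 neuronal markers summed to 5242, 6409 and 6706 CPM in BCAS WT at days 7, 10 and 14, 6902, 6240 and 5880 CPM in BCAS TRPA1-KO, and 6503 and 5898 CPM in sham. The marker sum was lowest in the library in which Bdnf was lowest. The share of neuronal tissue in the Bdnf values was not tested. TrkB, encoded by Ntrk2, differed by 0.077 ± 0.10 between the BCAS groups, and 0 of 8 other neurotrophin genes had a limma p under 0.05 there, beside 4.2% of all genes tested. Bdnf lies on chromosome 2 at 109674700 to 109727007, plus strand, with Gm45346 antisense to its start.

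Pdgfa, the mitogen of precursors, was at 28.6, 25.7 and 33.6 CPM in BCAS WT at days 7, 10 and 14, at 36.6, 33.8 and 28.8 CPM in BCAS TRPA1-KO, and at 34.0 and 29.6 CPM in sham. The order of the labels turned between day 10 and day 14, and all groups overlapped (BCAS WT against BCAS TRPA1-KO -0.17 ± 0.13 on the log2 scale, limma adjusted p = 0.98, exact permutation p = 0.20). Its receptor Pdgfra was at 52.7 to 60.3 CPM in BCAS WT, 55.7 to 62.6 CPM in BCAS TRPA1-KO, and 68.8 and 64.9 CPM in sham. It was thus below both sham libraries in each BCAS library, by -0.23 ± 0.090 in BCAS WT (limma adjusted p = 0.89, under the threshold before adjustment). Of the 5 other PDGF genes, Pdgfb and Pdgfrb, the ligand and receptor of vessel walls, were higher in BCAS WT than in sham by 0.26 ± 0.11 and 0.34 ± 0.12 (limma adjusted p = 0.91 and 0.88). Pdgfra, Pdgfb and Pdgfrb, 3 of the 5, had an unadjusted p under 0.05, against 5.45% of all genes tested. Without the BCAS WT library of day 7 Pdgfb no longer did (0.24 ± 0.12), whereas Pdgfra (-0.24 ± 0.098) and Pdgfrb (0.31 ± 0.13) did. Pdgfa is at chromosome 5, 138976014 to 138997370, minus strand.

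Nrg1, an axonal signal to the myelinating cell, had a coefficient of variation of 10.6% over the 8 libraries, the narrowest after Fgf1 at 9.04%. It was at 12.5, 16.3 and 13.4 CPM in BCAS WT at days 7, 10 and 14, at 14.0, 15.7 and 14.5 CPM in BCAS TRPA1-KO, and at 13.4 and 16.8 CPM in sham. No group stood apart, and the BCAS groups differed by -0.072 ± 0.14 on the log2 scale (limma adjusted p = 0.98, exact permutation p = 0.50). Its receptors Erbb3 and Erbb4 differed by -0.19 ± 0.15 and -0.087 ± 0.070. Adam17, a protease that sheds neuregulin, was the 1 of 10 other genes of this pathway with an unadjusted limma p under 0.05 between the BCAS groups (0.36 ± 0.15, adjusted p = 0.98), beside 4.2% of all genes tested. It no longer had one without the BCAS WT library of day 7 (0.21 ± 0.14). Nrg1 spans chromosome 8, 31814551 to 32884029.

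Fgf1 was at 72.5, 62.5 and 63.9 CPM in BCAS WT at days 7, 10 and 14, at 58.6, 56.4 and 63.8 CPM in BCAS TRPA1-KO, and at 58.1 and 70.1 CPM in the sham libraries labelled WT and TRPA1-KO. The 2 sham libraries differed more from each other than the BCAS groups did on average, and the day 14 BCAS libraries were nearly equal. The BCAS groups differed by 0.15 ± 0.087 on the log2 scale (limma adjusted p = 0.98, exact permutation p = 0.20). Fgf1 lies on chromosome 18 at 38838673 to 38929472, minus strand, within the oppositely oriented Arhgap26.

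Fgf2 was at the limit of what this depth can show, with 15, 5 and 6 reads in BCAS WT, 9, 7 and 8 reads in BCAS TRPA1-KO and 11 and 9 reads in sham. Its levels were 1.33, 0.630 and 0.658 CPM, then 1.0, 0.747 and 0.832 CPM, and 0.861 and 0.863 CPM in the same order. All 8 counting intervals overlapped, and no difference between groups was detectable (BCAS WT against BCAS TRPA1-KO -0.0076 ± 0.20 on the log2 scale, limma adjusted p = 1.0). Fgf2 shares bases with Gm43439 on its own strand, so reads may be split between them, and with Nudt6, Fgf2os and Gm42923 on the other strand, and lies on chromosome 3 at 37348346 to 37410108.

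Of the FGF receptors, Fgfr2, which oligodendrocytes carry, was lower in BCAS WT at 59.0, 66.9 and 70.0 CPM than in BCAS TRPA1-KO at 73.1, 77.5 and 80.9 CPM for days 7, 10 and 14. The groups did not overlap, as for 9.21% of all genes tested (log2 difference -0.24 ± 0.085, limma adjusted p = 0.98, exact permutation p = 0.10). The label WT was the lower in 4 of 4 matched pairs, sham included at 73.7 against 84.5 CPM. Fgfr1 and Fgfr3 differed by 0.14 ± 0.090 and 0.080 ± 0.11. Fgfr2 was the 1 of 13 other FGF genes with an unadjusted limma p under 0.05 between the BCAS groups, beside 4.2% of all genes tested. It no longer had one without the BCAS WT library of day 7 (-0.17 ± 0.080), where 3.4% of all genes did. Without that library it still had one in BCAS WT against sham and between all libraries of a label, beside 5.29% and 3.91% of all genes. It passed adjustment in none of these fits.

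**Figure D4:**
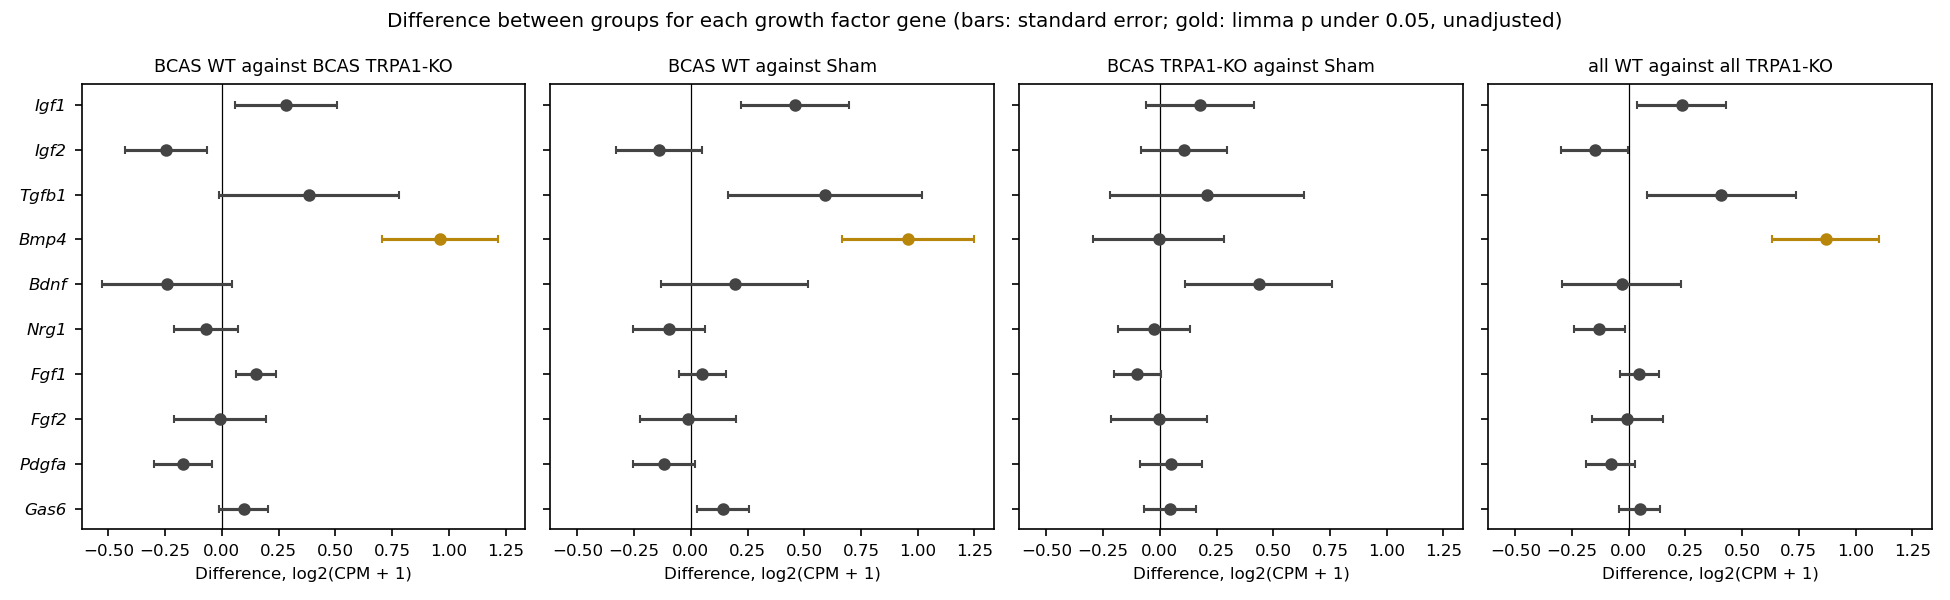
Difference of each ligand on the log2(CPM + 1) scale with its standard error in the 4 comparisons, in gold where the unadjusted limma p was under 0.05. Bmp4 lies at 0.96, 0.96 and 0.87 in the 3 comparisons that involve BCAS WT or the label WT and at -0.0053 in BCAS TRPA1-KO against sham.

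Over the 8 pathways together, 9 of 95 genes (9.47%) had an unadjusted limma p under 0.05 between the BCAS groups, beside the 4.2% of all genes, and 3 of 95 (3.16%) did without the BCAS WT library of day 7, beside 3.4%. Against sham 13 of 95 (13.7%) did in BCAS WT, beside 5.45% of all genes, or 7 of 95 (7.37%) without that library, beside 5.29%. In BCAS TRPA1-KO 2 of 95 (2.11%) did, Pdgfc and Nrg2, both lower, beside 2.74%. The counts in BCAS WT thus lay nearer to the background without the library of day 7. None passed adjustment in any of these fits. The pathway lists were chosen with earlier results of these data known, so their shares are not independent of these data.

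Library by library, with no replicate, ligands at or past 1.5-fold of the mean of both sham libraries, taken on the log2(CPM + 1) scale, were found only on the higher side. In BCAS WT they were 3 of 10 at day 7 against 8.08% of all genes tested (Igf1 at 1.97-fold, Tgfb1 at 2.96-fold and Bmp4 at 1.85-fold), 2 of 10 at day 10 against 3.43% (Tgfb1 at 1.52-fold and Bmp4 at 2.19-fold), and 2 of 10 at day 14 against 0.806% (Bdnf at 1.66-fold and Bmp4 at 1.80-fold). In BCAS TRPA1-KO they were 0 of 10 at day 7 against 1.4%, 1 of 10 at day 10 against 1.09% (Bdnf at 1.66-fold), and 0 of 10 at day 14 against 1.67%. On the lower side the count was 0 of 10 in each, against 2.03%, 2% and 2.17% of all genes in BCAS WT at days 7, 10 and 14 and 2.68%, 1.5% and 1.23% in BCAS TRPA1-KO. Bmp4 was thus past this fold in each BCAS WT library and in no BCAS TRPA1-KO library, but this depends on the scale and the reference. With a pseudocount of 0.1 Bmp4 was also past it in BCAS TRPA1-KO at day 14 (1.66-fold). Against the sham library of the same label alone it was past it in BCAS WT at days 7 and 10 (1.51-fold and 1.79-fold) and in BCAS TRPA1-KO at day 14 (1.78-fold), and not in BCAS WT at day 14. By that reference 2 ligands in BCAS WT were past 1.5-fold on the lower side, Bdnf at day 7 (0.582-fold) and Tgfb1 at day 14 (0.646-fold). The BCAS WT library of day 7 held the maximum of 5 of the 10 ligands, and of 21.9% of all genes tested.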

How the data were processed

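Polyadenylated RNA of 8 corpus callosum libraries was sequenced on a NovaSeq instrument. The authors mapped reads to GRCm38 with HISAT 2.1.0, counted genes with subread 2.0.1 and normalised with edgeR 3.34.1. The deposited signal is normalised CPM per gene, and 100% of values were whole multiples of 1 read within 0.01, so reads were recovered. All columns were used. Genes averaging 0.1 CPM or more over the libraries were tested with limma 3.58.1 (R 4.3.3, trend, two-sided) on log2(CPM + 1), which understates changes of low genes, with Benjamini-Hochberg adjustment over all of them and exact permutation tests for single ligands. Comparisons with sham and between all libraries of a label used 1 fit over 8 libraries, and the BCAS groups a fit over 6. On the recovered reads, edgeR 4.0.16 called 2, 0, 1 and 9 genes and DESeq2 1.42.0 called 17, 24, 4 and 13 genes at adjusted p under 0.05 in the 4 comparisons as ordered in the report. The scripts were tested on simulated data. The analysis was repeated with 0.1 as the pseudocount, without the filter or with one at 1 CPM, with robust variances, equal library medians, day as a block, own or same-label sham libraries, and leaving out each library. Exon lengths and positions are from GENCODE M21, and promoters from RefSeq. The annotation used for counting is not given in the sources used here.

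All 10 ligands are named. Of the pathway lists, genes with an unadjusted limma p under 0.05 and main receptors are named, and any other gene is said to have been singled out. Members, lists and markers were chosen with earlier results of these data known. Intervals, also for a count of 0, are Clopper-Pearson at 95% and cover counting error only.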

Additional observations from a re-analysis of the deposited data

Results flagged for a closer look

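Fgf1 was marked because the difference between BCAS and the sham library of the same label differed between the labels. With the label WT all 3 BCAS libraries, at 62.5 to 72.5 CPM, were above their sham library at 58.1 CPM, and with the label TRPA1-KO all 3, at 56.4 to 63.8 CPM, were below theirs at 70.1 CPM. The difference of the 2 effects was 0.42 on the log2(CPM + 1) scale (limma over all 8 libraries, unadjusted p = 0.037, adjusted p = 1.0), in a model chosen after the data were seen, and 271 of 18123 genes had a p under 0.05 for this term. Each effect rests on 1 sham library. In 20 sets of 4 libraries, the 10 ligands under either label, 0 held a library past Dixon's limit for an outlier, a limit that chance alone passes in about 1 of 20 sets.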

How the results depend on the processing

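The Bmp4 difference between the BCAS groups had an unadjusted p under 0.05 in 15 of 15 alternatives, that between all libraries of a label in 16 of 16, and that of BCAS WT against sham in 13 of 15, the exceptions being the fits on the sham library labelled WT alone. No ligand passed adjustment in any. Of the fits of a single ligand, 543 kept their direction and their side of the threshold, 7 crossed it, 2 lost it, and 54 turned sign around 0, those with an unadjusted p of at least 0.37 in each.

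The number of ligands with p under 0.05 between BCAS WT and sham was 2 by edgeR, 2 by DESeq2 and 0 with the sham library of the same label only. Leaving out 1 library in turn gave 0 to 3 there, 1 to 3 between the BCAS groups and 1 to 2 between all libraries of a label, the 3 coming without BCAS WT day 14 (Igf2, Tgfb1 and Bmp4 between the BCAS groups, and Igf1, Tgfb1 and Bmp4 against sham). The ligands' median log2 difference then ranged from -0.014 to 0.13 between the BCAS groups, from -0.00029 to 0.12 for BCAS WT against sham and from 0.036 to 0.16 for BCAS TRPA1-KO against sham, where same-label sham gave 0.16. With same-label sham, ligands past 1.5-fold in either direction numbered 1 in BCAS WT at day 10 (Bmp4, higher), 1 at day 14 (Tgfb1, lower), 1 in BCAS TRPA1-KO at day 7 (Bdnf, higher) and 2 at day 14 (Tgfb1 and Bmp4, higher), and with a pseudocount of 0.1 they numbered 1 in BCAS TRPA1-KO at day 7 (Bdnf, higher) and 1 at day 14 (Bmp4, higher).

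By edgeR and DESeq2 Fgf2 turned to 0.055 and 0.041 between the BCAS groups, 0.057 and 0.048 for BCAS WT against sham, 0.00024 and 0.0026 for BCAS TRPA1-KO against sham (0.00042 with equal library medians) and 0.038 and 0.036 between all libraries of a label. Bmp4 in BCAS TRPA1-KO against sham turned to 0.023 and 0.028, and to 0.29 with same-label sham, with which Gas6 there turned to -0.00025, and Bdnf and Nrg1 in BCAS WT to -0.11 and 0.056.

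Leaving out 1 library in turn, the log2 differences between the BCAS groups ranged from -0.51 to 0.095 for Bdnf, -0.18 to 0.083 for Fgf2, -0.18 to 0.0041 for Nrg1, -0.10 to 0.87 for Tgfb1 and -0.032 to 0.18 for Gas6. For BCAS WT against sham they ranged from -0.11 to 0.53 for Bdnf, -0.083 to 0.18 for Fgf1, -0.18 to 0.080 for Fgf2 and -0.25 to 0.056 for Nrg1. For BCAS TRPA1-KO against sham they ranged from -0.23 to 0.033 for Fgf1, -0.057 to 0.041 for Fgf2, -0.046 to 0.15 for Pdgfa, -0.18 to 0.13 for Nrg1, -0.033 to 0.45 for Tgfb1, -0.00070 to 0.092 for Gas6 and -0.30 to 0.29 for Bmp4. Between all libraries of a label they ranged from -0.22 to 0.20 for Bdnf, -0.012 to 0.10 for Fgf1, -0.12 to 0.055 for Fgf2 and -0.052 to 0.096 for Gas6.

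Day as a replicate block left 1 ligand with p under 0.05 between the BCAS groups, and 632 genes in place of 761. Deviations from the group means were not shared within a day (r of -0.10, 0.0051 and -0.26 over 10744 genes for days 7, 10 and 14), so the days do not pair them. Against sham, which has day 14 alone, a block of day over 8 libraries was added after the data were seen. It left 1 ligand, Bmp4, in BCAS WT and 0 in BCAS TRPA1-KO, with 509 and 371 genes in place of 988 and 496, and turned Igf2 in BCAS WT to 0.13, and Tgfb1, Gas6 and Bmp4 in BCAS TRPA1-KO to -0.20, -0.023 and 0.21. Fgf2 has a mean under 1 CPM and gave no value under that filter. A single library per label and day limits every statement on days.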
